A study of Homo sapiens with 6 samples.

Results

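The neurexin, contactin-associated protein (CNTNAP) and neuroligin gene families were followed through 9 genes in TC-71, a line long in culture that was derived from Ewing sarcoma. The rows of CNTNAP1, CNTNAP2, CNTNAP4, NRXN2, NRXN3, NLGN1, NLGN2, NLGN3 and NLGN4X were taken by gene symbol, 9 of 60662 genes in the deposited count table. The 9 genes were chosen by family with their CPM in the 6 libraries known, including the difference of CNTNAP2 between knockout and wildtype. Every knockout-against-wildtype value of these genes is therefore a description, not independent evidence of a difference. The libraries were XG knockout replicates 1, 2 and 3 and wildtype replicates 1, 2 and 3, all untreated and grown in IMDM with fetal bovine serum. The comparison addressed how the transcriptome differs when XG, the gene of the Xg blood group antigen at the cell surface, is knocked out. Whether the knockout line was 1 clone or a pool, and whether replicates were separate cultures, is not stated in the labels. The p-values then measure only how far these libraries differ from each other, which may be a technical spread.

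Neurexins are single-pass membrane proteins of the presynaptic side that bind neuroligins on the postsynaptic side, and the bridge between them helps to organise transmitter release sites and receptors. CNTNAP proteins are relatives of neurexins that sit on axons. CNTNAP1 (Caspr) forms the paranodal junction beside the node of Ranvier together with contactin, and CNTNAP2 (Caspr2) holds potassium channels next to it. Ewing sarcoma is a tumour of bone and soft tissue driven by a fusion of EWSR1 with an ETS factor, most often FLI1, which binds DNA at GGAA sequences.

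The libraries held 22557187 to 31214099 counted fragments, and 14425 genes passed the filter on low counts. XG itself was at 29.97, 29.98 and 28.9 CPM in knockout replicates 1, 2 and 3, against 45.4, 47.1 and 44.4 CPM in wildtype replicates 1, 2 and 3 (CPM is the count relative to the TMM-scaled library size), a log2 fold change of -0.63 (SE 0.0478). XG transcript was thus reduced in each knockout library but still present. All 9 Ewing sarcoma markers examined, among them NKX2-2, NR0B1 and CD99, were detected and passed the filter, and of these CD99 was called lower, at 458 CPM in knockout and 496 CPM in wildtype libraries. Of 9 neuronal markers, SYT1 (185 CPM in knockout and 181 CPM in wildtype libraries) and GAP43 (40.7 and 37.0 CPM) were abundant, while RBFOX3, STMN2 and SNAP25 averaged at most 0.237 CPM in either group. The myelinating glia markers SOX10 and MBP had 0 and 6 counts over all libraries. Summed Ewing sarcoma markers ran from 1784 to 1795 CPM in knockout and from 1832 to 1863 CPM in wildtype libraries. The markers did not move together. Means of CD99, EWSR1 (386 CPM in knockout and 414 CPM in wildtype libraries), NR0B1 and NKX2-2 were lower in knockout. Those of PRKCB (454 and 444 CPM), STEAP1, PPP1R1A, BCL11B and FLI1 were slightly higher. Summed neuronal markers ran from 230 to 236 CPM in knockout and from 224 to 228 CPM in wildtype libraries, nearly all of it from SYT1 and GAP43. SYP, ELAVL3 and MAP2 had lower means in knockout than in wildtype libraries, and 0 of the 9 neuronal markers were called. Summed myelinating glia markers ran from 1.202 to 2.33 CPM in knockout and from 1.09 to 1.74 CPM in wildtype libraries. Summed fibroblast markers ran from 68.5 to 77.5 CPM in knockout and from 73.3 to 78.9 CPM in wildtype libraries, and 5 blood cell markers summed to at most 0.281 CPM, with CD3E and HBB at 0. The part of these marker levels in any result was not tested. Knockout replicate 3 stood apart from its group: a chi-square per gene, where 1 is sampling noise, was 4.72 and 4.46 against knockout replicates 1 and 2 but 2.18 to 2.51 against the wildtype libraries. Knockout replicates 1 and 2 were also lower for GC-rich genes, with a trend at 61.4% GC of -0.11 and -0.077 on the log2 scale, against 0.06 in knockout replicate 3 and 0.041 to 0.053 in wildtype libraries.

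Sequence before a RefSeq start site is shown for CNTNAP2, the gene of the 9 whose knockout and wildtype libraries do not overlap. It is also shown for CNTNAP1, its relative at a similar CPM, whose libraries do overlap. The RefSeq table (GRCh38.p14) held windows of 300 bases around 12 start sites of 8 of the 9 genes. The bases printed here lie before the start site and in no exon of the gene in the count table's annotation, on the plus strand, with GGAA or its reverse complement TTCC in capitals.
CNTNAP2: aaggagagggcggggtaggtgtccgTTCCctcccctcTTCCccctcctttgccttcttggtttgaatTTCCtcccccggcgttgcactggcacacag
CNTNAP1: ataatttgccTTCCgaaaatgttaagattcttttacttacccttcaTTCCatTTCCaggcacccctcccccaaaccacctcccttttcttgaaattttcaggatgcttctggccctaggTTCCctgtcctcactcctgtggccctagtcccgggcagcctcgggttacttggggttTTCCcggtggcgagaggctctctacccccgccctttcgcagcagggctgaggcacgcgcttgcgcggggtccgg

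The CNTNAP2 stretch is chr7:146116551-146116647, 97 bases ending 153 bases before the RefSeq start, because the bases between belong to an exon of another annotated CNTNAP2 transcript. It lies inside the annotated gene, whose first base in the count table is 146116002, and so is upstream of that RefSeq start but not of the whole gene. The CNTNAP1 stretch is chr17:42682281-42682530, the 250 bases directly before its start. Over the whole 300-base window, GGAA on either strand occurred 6 times at CNTNAP2 and 7 times at CNTNAP1, overlapping matches counted. That tetramer was found in 11 of the 12 windows and in 95.5% of all 35116 windows of the table. The doubled motif GGAAGGAA, on either strand and nested within GGAA matches, was found in 1 of the 12 windows, at CNTNAP4, and in 3.67% of all windows. TATAAA, also on either strand, was found in 0 of the 12 windows and in 11.5% of all windows. A match describes the letters of the window and nothing was measured at these sites.

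Levels of the 9 genes spread over more than 3 orders of magnitude, from a mid-range NLGN2 to an unread CNTNAP4. To compare genes, CPM was divided by exon length in kb and averaged over the 6 libraries. NLGN2, a neuroligin of inhibitory synapses, was highest at 5.62 ± 0.346 CPM per kb (SD, n = 6), a level above 49.9% of the 12388 protein-coding genes tested. NLGN4X followed at 3.76 ± 0.0962 CPM per kb, then CNTNAP1 at 1.41 ± 0.12, CNTNAP2 at 0.712 ± 0.149, NLGN1 at 0.457 ± 0.0408 and NLGN3 at 0.268 ± 0.0655 CPM per kb. NRXN2 had 0.0213 ± 0.0122 CPM per kb and NRXN3 0.000728 ± 0.00113 CPM per kb. The ranges over 6 libraries did not overlap between any neighbours in this order down to NRXN3. NRXN2 and NRXN3 were separated only by the margin of single counts, and the lowest NLGN1 library (0.396 CPM per kb) lay close above the highest NLGN3 library (0.378 CPM per kb). NRXN3 and CNTNAP4 were not separated. By CPM alone CNTNAP2 came before CNTNAP1, at 11.7 and 8.91 CPM, since its annotated exons sum to 16377 bases and those of CNTNAP1 to 6306 bases.

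**Figure D1:**
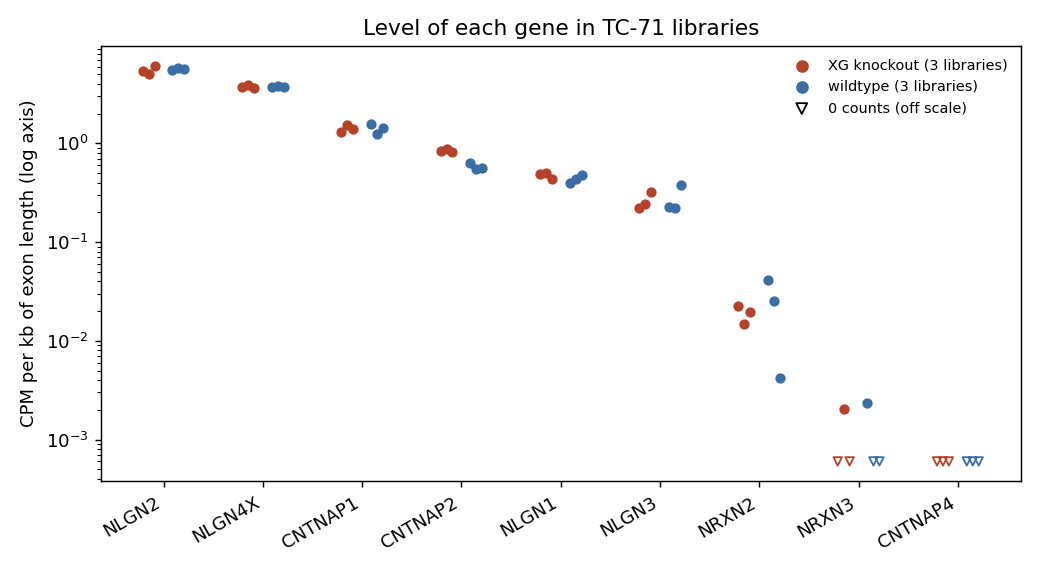
Level of each of the 9 genes in CPM per kb of exon length (log axis), with knockout libraries left and wildtype libraries right of each tick; open triangles mark libraries with 0 counts. NLGN2 and NLGN4X lie above 3.6 CPM per kb in every library, whereas NRXN2 stays under 0.042 CPM per kb.

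The neurexins were nearly silent. NRXN2 (chr11:64606174-64723197, minus strand; gene positions are those of the count table, on GRCh38) had 6, 5 and 6 counts in knockout replicates 1, 2 and 3, against 12, 7 and 1 counts in wildtype replicates 1, 2 and 3. The wildtype libraries span the knockout libraries completely, and NRXN2 did not pass the filter on low counts. NRXN3 (chr14:78170373-79868290, plus strand) had 1 count in knockout replicate 2 and 1 in wildtype replicate 1, with 0 in the other libraries. CNTNAP4 (chr16:76277278-76560757, plus strand), a CNTNAP relative described in interneurons, had 0 counts in all 6 libraries. A count of 0 allows up to 3 counts per library, or 0.0949 to 0.121 CPM in knockout and 0.109 to 0.133 CPM in wildtype libraries, counting error only. No fold change is given for these 3 genes.

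CNTNAP2 was the gene of the list whose level differed between the groups. CNTNAP2 (ENSG00000174469.23, chr7:146116002-148420998, plus strand) spans 2304997 bases. It had 339, 457 and 386 counts in knockout replicates 1, 2 and 3, against 289, 233 and 205 counts in wildtype replicates 1, 2 and 3. Scaled for depth, these were 13.6, 14.5 and 13.3 CPM in knockout libraries and 10.5, 8.94 and 9.12 CPM in wildtype libraries. All 3 knockout libraries lay above all 3 wildtype libraries, and wildtype replicate 1 was the nearest to them. The means were 13.8 ± 0.584 CPM in knockout and 9.51 ± 0.828 CPM in wildtype libraries (SD, n = 3 each). The log2 fold change was 0.54 (SE 0.0809), a 1.45-fold level with a 95% interval of 1.29 to 1.63-fold. The coefficient of variation between libraries was 4.23% in knockout and 8.71% in wildtype, where counting alone would give 5.04% and 6.42%. In bulk RNA, more cells expressing a gene and more of its RNA per cell cannot be told apart. In the authors' deposited table its log2 fold change was 0.53 with a standard error of 0.115, and no adjusted p is listed for it there.

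The CNTNAP2 difference was present with and without the knockout library that stood apart. With knockout replicate 3 alone against the wildtype libraries the log2 fold change was 0.48, and without that replicate it was 0.56. With the GC correction it was 0.51, the GC content of its longest transcript being 44.8%, against a median of 48.0% over tested genes. Without wildtype replicate 3 the log2 fold change was 0.50 and the edgeR call was lost (adjusted p = 0.0514, threshold 0.05). The adjusted p ranged from 1.7e-07 to 0.0514 over 18 alternatives.

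CNTNAP1, at a similar CPM, showed no such separation. CNTNAP1 (chr17:42682531-42699993, plus strand) had 8.20, 9.61 and 8.87 CPM in knockout replicates 1, 2 and 3, against 9.81, 7.91 and 9.08 CPM in wildtype replicates 1, 2 and 3. The groups overlapped fully, and the highest and the lowest library were both wildtype. Its log2 fold change was -0.0014 (SE 0.0969), with a 95% interval of 0.868 to 1.15-fold, whose upper end lies below the lower end for CNTNAP2. The difference between both genes is given as a description, without a test. The ratio of CNTNAP2 to CNTNAP1 counts, which does not depend on the scaling of the library, was 1.66, 1.503 and 1.502 in knockout libraries and 1.07, 1.13 and 1.005 in wildtype libraries. It is not corrected for GC content, which was 57.3% for CNTNAP1 and 44.8% for CNTNAP2. With the GC correction the log2 fold changes were 0.054 for CNTNAP1 and 0.51 for CNTNAP2. Per length, CNTNAP2 made up 37.4 ± 1.37% of the summed CNTNAP1, CNTNAP2 and CNTNAP4 level in knockout and 29.1 ± 1.22% in wildtype libraries (SD, n = 3 each). The lowest knockout share, 36.6%, was above the highest wildtype share, 30.3%.

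**Figure D2:**
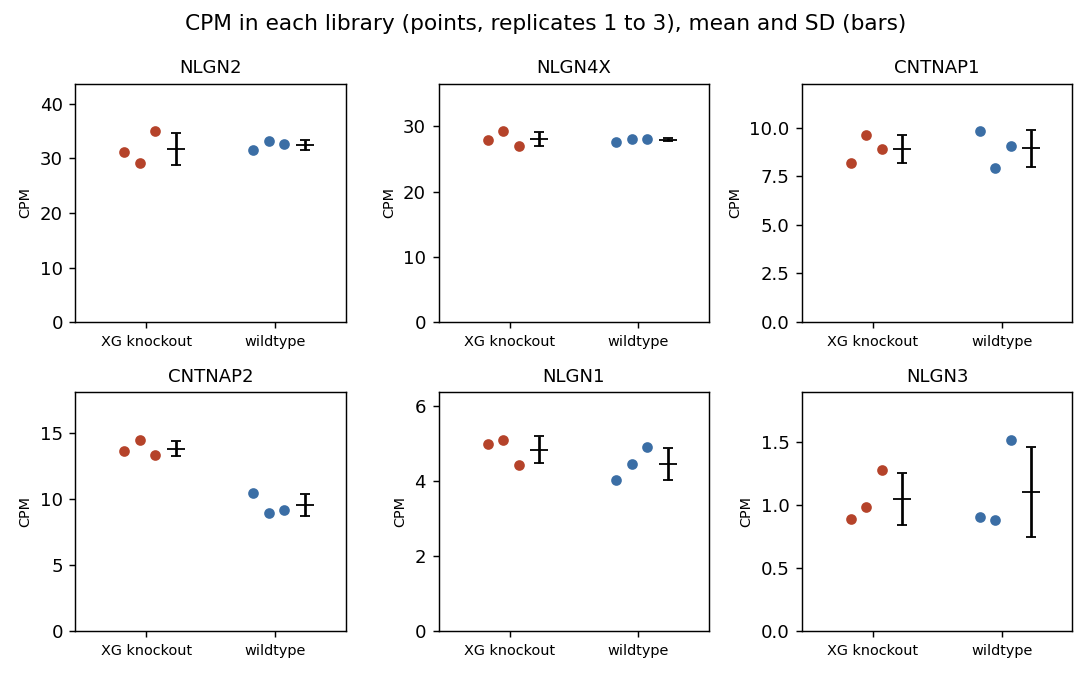
CPM of the 6 genes that passed the filter, with knockout replicates 1 to 3 on the left and wildtype replicates 1 to 3 on the right of each panel, and mean ± SD as black bars; axes start at 0. CNTNAP2 is the panel in which the groups separate, at 13.3 to 14.5 CPM in knockout and 8.94 to 10.5 CPM in wildtype libraries.

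The 4 neuroligins, adhesion partners of neurexins, kept close to the wildtype level in sum. Together they reached 10.1 ± 0.385 CPM per kb in knockout and 10.1 ± 0.26 CPM per kb in wildtype libraries (SD, n = 3 each). NLGN2 gave 55.1 ± 3.03% of this sum in knockout and 56.0 ± 0.693% in wildtype libraries, and NLGN4X gave 37.5 ± 2.81% and 37.0 ± 0.683%. NLGN1 and NLGN3 shared the remainder, with 4.74 ± 0.524% and 2.59 ± 0.413% in knockout and 4.32 ± 0.324% and 2.698 ± 0.828% in wildtype libraries.

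NLGN2 (chr17:7404874-7419860, plus strand) had 31.2, 29.2 and 35.0 CPM in knockout replicates 1, 2 and 3, against 31.5, 33.2 and 32.7 CPM in wildtype replicates 1, 2 and 3. Knockout replicate 3 was the highest and knockout replicate 2 the lowest of all 6 libraries. The coefficient of variation was 9.28% in knockout libraries, where counting alone would give 3.33%, and 2.66% in wildtype libraries. NLGN2 is GC-rich, at 62.6% in its longest transcript, and knockout replicate 3, the highest library for it, is also the knockout library with the highest GC trend, whose part in this value was not tested. The log2 fold change was -0.031 (SE 0.0614, 95% interval 0.895 to 1.07-fold), 0.065 with the GC correction, -0.11 without knockout replicate 3 and 0.11 with that replicate alone.

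NLGN4X (chrX:5840637-6228867, minus strand) encodes an X-linked neuroligin and lies 3024 kb from XG on the same chromosome. It had 28.0, 29.2 and 27.0 CPM in knockout replicates 1, 2 and 3, against 27.6, 28.1 and 28.0 CPM in wildtype replicates 1, 2 and 3. The wildtype libraries lay inside the range of the knockout libraries. Its 95% interval of 0.932 to 1.09-fold was the narrowest of the 6 genes. NLGN4Y, its near-identical copy on the Y chromosome, had 2.02 ± 0.137 CPM in knockout and 1.93 ± 0.0928 CPM in wildtype libraries (SD, n = 3 each). Fragments that map equally well to both copies are not counted, which leaves both levels uncertain.

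NLGN1 (chr3:173396284-174286644, plus strand), a neuroligin of excitatory synapses, had 4.98, 5.09 and 4.42 CPM in knockout replicates 1, 2 and 3, against 4.02, 4.45 and 4.89 CPM in wildtype replicates 1, 2 and 3. Knockout replicates 1 and 2 were above every wildtype library, and knockout replicate 3 lay within the wildtype range. Its transcript is AT-rich, with 35.2% GC. The log2 fold change of NLGN1 was 0.12 (SE 0.121, 95% interval 0.914 to 1.30-fold), 0.076 with the GC correction, 0.19 without knockout replicate 3 and -0.0033 with that replicate alone. NLGN3 (chrX:71144831-71171201, plus strand), a neuroligin found at both kinds of synapse, had 22, 31 and 37 counts in knockout replicates 1, 2 and 3, against 25, 23 and 34 counts in wildtype replicates 1, 2 and 3. The groups overlapped, and the 95% interval ran from 0.663 to 1.43-fold, so that differences inside it were not detectable at this depth.

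**Figure D3:**
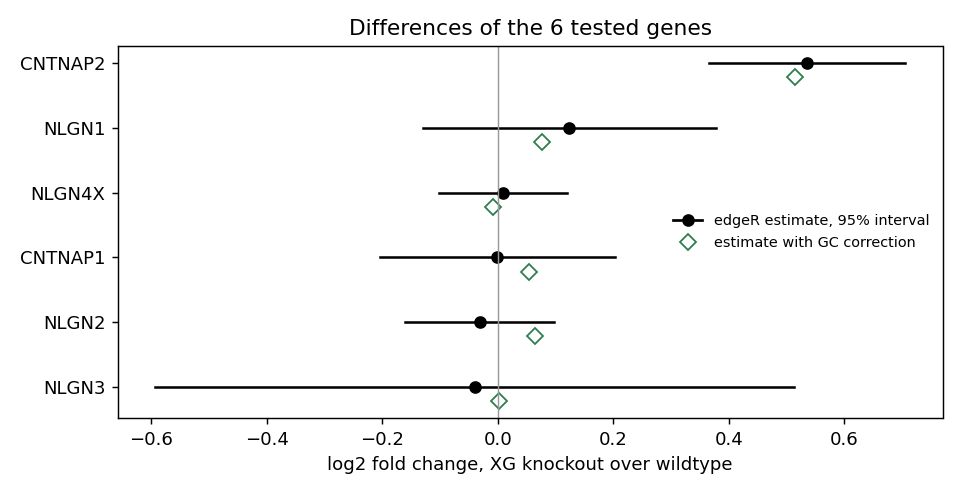
Log2 fold change of XG knockout over wildtype for the 6 genes that passed the filter (circles, lines are 95% intervals from edgeR) and the same with GC correction (diamonds). CNTNAP2 lies at 0.54 and the other 5 genes between -0.04 and 0.12, all with intervals that span 0.

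Of the 9 genes, 6 passed the filter on low counts, and 1 of these 6, CNTNAP2, was called higher in knockout and 0 lower at an edgeR adjusted p under 0.05 over all 14425 genes. Of all genes tested 1.36% were called, 0.444% higher and 0.915% lower, that is 64 and 132 genes, against 157 higher and 182 lower with the GC correction. Since the genes were listed with this comparison known, nothing is read from that count. Libraries of the groups did not overlap for 1 of the 6 genes and for 20.5% of all genes tested. The median log2 fold change of the 6 genes was 0.004, against 0.0019 over all genes tested.

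Genes known to work with these proteins were listed from general knowledge of the pathway, 101 in all, of which 65 passed the filter and 17 had 0 counts in every library. Among those 17, the entry read under the symbol FLRT1 is annotated as a long noncoding RNA. Its 0 counts therefore say nothing about the protein-coding FLRT1. At an edgeR adjusted p under 0.05, 1 of the 65 was higher and 0 were lower, a share of 1.54%, close to the 1.36% over all genes. At an unadjusted p under 0.05, 9 were higher and 9 lower, 27.7% of the 65, against 16.8% of all genes tested (6.98% higher and 9.81% lower). With the GC correction 7 were higher and 7 lower at that level, against 14.6% of all genes (7.05% higher and 7.54% lower). The median log2 fold change of the 65 was -0.0093, and nothing particular to the lists is read from these shares. The called gene, EPB41L3, encodes protein 4.1B, a membrane skeleton protein that binds the cytoplasmic tails of CNTNAP1 and CNTNAP2. EPB41L3 had 13, 23 and 23 counts in knockout replicates 1, 2 and 3, against 8, 5 and 5 counts in wildtype replicates 1, 2 and 3. The groups did not overlap, but the gene was barely read, at 0.681 ± 0.142 CPM in knockout and 0.235 ± 0.0499 CPM in wildtype libraries (SD, n = 3 each). The change of EPB41L3 on the log2 scale was 1.53, with SE 0.366 and an edgeR adjusted p of 0.0446, higher in 3 of 3 knockout libraries. Every wildtype library lay under the minimum count of 10 and every knockout library above it. EPB41L3 thus passed the filter only through the group where it was high, and its call is a description, not independent evidence of a difference. The EPB41L3 call was lost without knockout replicate 1 (adjusted p = 0.0594) or 2 (0.169) and without wildtype replicate 1 (0.156), 2 (0.23) or 3 (0.192). It was kept without knockout replicate 3 (0.0283) and lost with that replicate alone against wildtype (0.118), and over 16 alternatives the adjusted p ranged from 0.00899 to 0.23. The log2 fold change of EPB41L3 stayed between 1.376 and 1.73 over the same alternatives.

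Other genes of the protein 4.1 family had far more counts and were close to equal between the groups. EPB41 had 632 ± 5.46 CPM in knockout and 634 ± 0.6 CPM in wildtype libraries, and EPB41L2 had 328 ± 5.72 and 328 ± 1.66 CPM (SD, n = 3 each). In the CNTNAP partner list 11 of 16 genes passed the filter, 1 higher and 0 lower, with 2 higher and 0 lower at an unadjusted p. The contactin CNTN1, which pairs with CNTNAP1 at the paranode, had 14.9 CPM in knockout and 13.4 CPM in wildtype libraries, a log2 fold change of 0.16 that did not pass (edgeR adjusted p = 0.258). CNTN2, the contactin that pairs with CNTNAP2, and the potassium channel KCNA1 had 0 counts in every library. The channel KCNA2 had 6.67 CPM in knockout and 7.44 CPM in wildtype libraries (log2 fold change -0.16, edgeR adjusted p = 0.435). These 4 genes were chosen after their values were seen.

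Among the other ligands of neurexins listed, NXPH2 and DAG1 were the highest by CPM per kb, while 6 had 0 counts in every library. Of 21 other neurexin ligands 11 passed the filter and 0 were called, with 1 higher and 5 lower at an unadjusted p, and 1 higher and 1 lower with the GC correction. Of the 5 lower genes, chosen here after their values were seen, CBLN2 had a log2 fold change of -0.67 and -0.70 with the GC correction. CBLN2 had 0.931 CPM in knockout and 1.48 CPM in wildtype libraries, and was the 1 gene still lower at an unadjusted p with that correction. The others moved toward 0 with it, C1QL1 from -0.30 to -0.16, NXPH4 from -0.22 to -0.098, ADGRL1 from -0.11 to -0.023 and DAG1 from -0.078 to -0.041. NXPH2, a secreted neurexophilin, had 67.2 ± 2.34 CPM in knockout and 68.4 ± 0.925 CPM in wildtype libraries, and DAG1, dystroglycan, had 157 ± 6.5 and 165 ± 5.7 CPM (SD, n = 3 each). Neither passed at an adjusted p, with a log2 fold change of -0.027 for NXPH2. Of 10 scaffold and splicing partners of neurexins 8 passed the filter and 0 were called, with 2 higher and 0 lower at an unadjusted p. KHDRBS1, an RNA-binding protein that regulates neurexin splicing, had 379 ± 4.95 CPM in knockout and 373 ± 2.95 CPM in wildtype libraries, and the scaffold gene LIN7A had 95.6 ± 2.73 and 88.7 ± 1.92 CPM.

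On the neuroligin side 11 of 14 scaffold and surface partners passed the filter and 0 were called, with 0 higher and 1 lower at an unadjusted p. HOMER1, a scaffold of excitatory synapses, had 51.7 ± 1.76 CPM in knockout and 50.5 ± 0.528 CPM in wildtype libraries. GPHN, gephyrin, the scaffold of inhibitory synapses to which NLGN2 binds, had 45.4 ± 0.619 and 44.0 ± 0.181 CPM (SD, n = 3 each). Of 35 other synaptic adhesion genes, counting the noncoding FLRT1 entry, 23 passed the filter and 0 were called, with 4 higher and 3 lower at an unadjusted p. The receptor phosphatase PTPRF had 129 ± 8.61 CPM in knockout and 135 ± 3.64 CPM in wildtype libraries, and LRFN4 had 31.4 ± 5.27 and 37.5 ± 1.32 CPM. Of the other 5 family genes NLGN4Y passed the filter and 0 were called, and CNTNAP3B averaged 0.194 CPM in knockout and 0.187 CPM in wildtype libraries. CNTNAP3 and CNTNAP3B are near-identical copies, whose shared fragments are not counted.

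**Figure D4:**
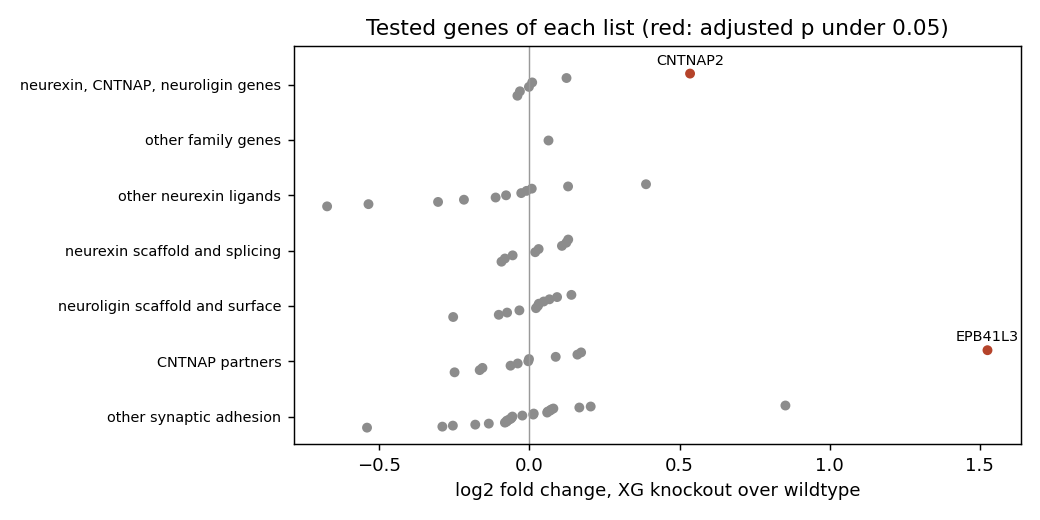
Log2 fold change of XG knockout over wildtype for each gene that passed the filter, the 6 neurexin, CNTNAP and neuroligin genes in the top row and 6 lists of related genes below; red marks an edgeR adjusted p under 0.05. CNTNAP2 at 0.54 and EPB41L3 at 1.53 are the red points.

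The profile of CNTNAP2 over the 6 libraries was compared with those of 10002 protein-coding genes of at least 5 CPM, by the root-mean-square difference of log2 CPM after each gene was centred on its own mean. SLC7A2, a cationic amino acid transporter gene, was closest at 0.0756, with 44.8 ± 0.787 CPM in knockout and 31.5 ± 0.268 CPM in wildtype libraries (SD, n = 3 each). SSPN, sarcospan, followed at 0.0863, FBXO36 at 0.0943, CDC42EP3 at 0.0946 and SDHAF4 at 0.116. Their log2 fold changes ran from 0.38 for SSPN to 0.51 for SLC7A2. Over 6 libraries, closeness to CNTNAP2 thus largely restates a similar knockout-against-wildtype difference. SSPN, FBXO36 and SDHAF4 were not called (edgeR adjusted p = 0.0671, 0.0587 and 0.0526). Among the other genes of the list of 9 that met the level, NLGN4X had a difference of 0.276, CNTNAP1 of 0.278 and NLGN2 of 0.319. These were ranks 4149, 4430 and 7647 in closeness.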

How the data were processed

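Gene expression was measured by stranded mRNA sequencing in 6 libraries, and titles gave the group and replicate number. Per the submitters' processing notes, reads were aligned with STAR 2.7.6a to GRCh38. The deposited counts are whole numbers of fragments. Per the file headers, featureCounts (Subread 2.0.1) assigned read pairs to exons of GENCODE 33 genes on the reverse strand. No multi-mapping option was set, so fragments shared by near-identical genes were left out. The authors also deposited log2 fold changes, Wald scores, mean normalised signal (base mean) and p-values, attributed to DESeq2 1.38.3 by the processing notes; their direction is not stated, and the signs matched the counts in 100% of called genes.

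Genes were filtered with filterByExpr (minimum count 10, minimum total 15), scaled by TMM and tested with edgeR 4.0.16 quasi-likelihood in R 4.3.3 (two-sided, no covariates, Benjamini-Hochberg over 14425 genes, threshold 0.05). The 45 Y copies of pseudoautosomal genes held 0 counts. Exon length came from the deposited count table. GC content was that of the longest GENCODE 29 transcript, available for 99.5% of tested genes; the GC correction removed a lowess trend (span 0.5) per library. Simulated data were used to test the scripts. The 9 genes, the partner lists and the markers were chosen with earlier results of these data known. Named partner genes are those called and, per list, the 2 highest by CPM per kb. The 5 genes closest to CNTNAP2 by profile are also named, and others are marked. The common biological coefficient of variation was 3.28%. Alternatives tried were other scalings, DESeq2 1.42.0, limma voom (limma 3.58.1), other filters, a replicate block, GC correction, leaving out libraries, knockout replicate 3 alone and a threshold of 0.01.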

Additional observations from a re-analysis of the deposited data

How the results depend on the processing

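The CNTNAP2 log2 fold change kept its direction in all 18 alternatives (0.48 to 0.61) and its call in 17; leaving out 1 library gave 0.49 to 0.61, with the call lost without wildtype replicate 3 (0.50), so that 0 to 1 of the 9 genes were called. The other 5 tested genes were not called in any alternative run for them. Their sign changed in 10 alternatives for CNTNAP1, 1 for NLGN1, 5 for NLGN2, 5 for NLGN3 and 4 for NLGN4X, with values between -0.21 and 0.24. Ranking by CPM instead of CPM per kb exchanged CNTNAP2 (3) and CNTNAP1 (4).

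Over all genes, 64 were called higher and 132 lower in knockout, and 1 partner gene. Without a filter on low counts these were 147, 500 and 6; with at least 100 counts in 3 libraries 85 were lower and 0 partner genes called (edgeR, 13 at an unadjusted p under 0.05). With the replicate block they were 12, 25 and 0 (16 unadjusted). Deviations of same-numbered libraries correlated at -0.046, -0.024 and -0.051, so no shared shift was seen. These values cannot tell whether same-numbered libraries were prepared together. The block gave a CNTNAP2 log2 fold change of 0.54. GC correction gave 157 higher and 2 partner genes, EPB41L3 and TENM2, and the same correction without knockout replicate 3 gave 162 higher, 224 lower and 2 partner genes, SLITRK4 and TENM2. Knockout replicate 3 alone, assumed to vary like the wildtype libraries, gave 54 lower and 0 partner genes (12 unadjusted). DESeq2 called 0 partner genes (12 unadjusted), with no adjusted p for EPB41L3. At a threshold of 0.01 there were 13 higher, 20 lower and 0 partner genes (18 unadjusted). Leaving out 1 library gave 7 to 522 higher, 11 to 1329 lower and 0 to 14 partner genes, the highest without knockout replicate 3. The cause was not tested. NRXN2, NRXN3 and CNTNAP4 had too few counts to pass the filter and were not tested, and NLGN3, with few counts, had a wide interval.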
